A study of Mus musculus with 6 samples.

Results

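The enzymes that turn microRNA precursors into mature microRNAs were examined in mouse embryonic stem cells, untreated or given tamoxifen to delete Dicer. The group holds 6 genes, chosen by name: Drosha, Dgcr8, Xpo5, Dicer1, Tarbp2 and Prkra. All 6 were measured, by 7 of the 35556 probe sets on the arrays, and they are 6 of the 19938 genes that had a probe set of their own. Tarbp2 had 2 such probe sets and the other 5 genes had 1 each. The untreated group comprised 3 arrays of cells with floxed Dicer alleles (Dicer Fx/Fx), in which Dicer had not been deleted. The tamoxifen group comprised 3 arrays of Dicer Fx/Fx cells given tamoxifen for 3 days to induce the deletion and collected 2 days later, on day 5. Both groups carried the floxed alleles, and no collection day was given for the untreated cells. The labels do not name the recombinase, what drives it, the deleted exons or the number of cell clones. They number the samples 1 to 3 in each group without saying that these were separate cultures, so the p-values cover only the spread among these arrays, which could be technical. Tamoxifen-treated wild-type cells (E14) were not analysed here, and the effects of tamoxifen and of Dicer deletion cannot be told apart.

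MicroRNAs are made in steps. In the nucleus, the Microprocessor, formed by the ribonuclease DROSHA and its RNA-binding partner DGCR8, cuts a hairpin out of the primary transcript. The export receptor XPO5 carries the hairpin to the cytoplasm, where DICER removes the loop with the double-stranded RNA-binding proteins TARBP2 (also called TRBP) or PRKRA (also called PACT) at its side, and an Argonaute protein keeps one arm as the mature microRNA. Mouse embryonic stem cells survive without Dicer or Dgcr8, but they proliferate and differentiate poorly.

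Not every hairpin needs every enzyme. The 3 mouse hairpins that follow are shown because each takes another route through the 6 genes. They are RefSeq sequences of build GRCm38.p6, written 5′ to 3′, and capitals mark the annotated mature microRNA arms.
Mir294: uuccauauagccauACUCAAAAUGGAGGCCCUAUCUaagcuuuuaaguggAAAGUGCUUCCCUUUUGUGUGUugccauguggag
Mir877: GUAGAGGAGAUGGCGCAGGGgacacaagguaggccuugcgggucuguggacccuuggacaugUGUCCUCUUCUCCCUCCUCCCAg
Mir451a: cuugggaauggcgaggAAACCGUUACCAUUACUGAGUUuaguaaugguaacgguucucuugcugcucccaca

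Mir294 (chr7:3220641-3220724, plus strand) belongs to the microRNA cluster that dominates mouse embryonic stem cells and takes the usual route. The Microprocessor trims the lower-case ends and Dicer removes the 14 bases between its arms. Mir877 (chr17:35960730-35960814, minus strand) is a mirtron, an intron whose ends are made by splicing in place of the Microprocessor. Its first arm accordingly starts at base 1 of the hairpin, and 42 bases lie between the arms for Dicer to remove. Mir451a (chr11:78073170-78073241, plus strand) is cut by the Microprocessor and then by Argonaute 2 without Dicer. A stem of 16 matching bases in it closes on a loop of 6 bases, and the last 5 bases of its single mature arm lie in that loop. The arrays measured transcripts of the enzymes, and no level of these microRNAs is given here.

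After tamoxifen, Dicer1 fell to 27.7% of its untreated level, and none of the other 5 transcripts was called as changed in the fit without the replicate block. With the block, which pairs same-numbered arrays, Prkra was called lower as well (log2 -0.23, limma adjusted p = 0.0282). Without the block, 1 of the 6 genes fell, 0 rose and 5 did not pass the test; with it, 2 fell, 0 rose and 4 did not pass, in a fit that called 17.4% of all genes. Across all 19938 genes, 7.78% were called, 3.99% lower and 3.79% higher. A gene was called when limma's p-value, adjusted over all genes by the Benjamini-Hochberg method, was under 0.05. The median change of the 6 genes was -0.08 on the log2 scale, against 0.01 for all genes. Only Dicer1 had groups that did not overlap, which was so for 29.3% of all genes. At an unadjusted p under 0.05 the 6 genes again gave 1, against 24.5% of all genes.

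**Figure D1:**
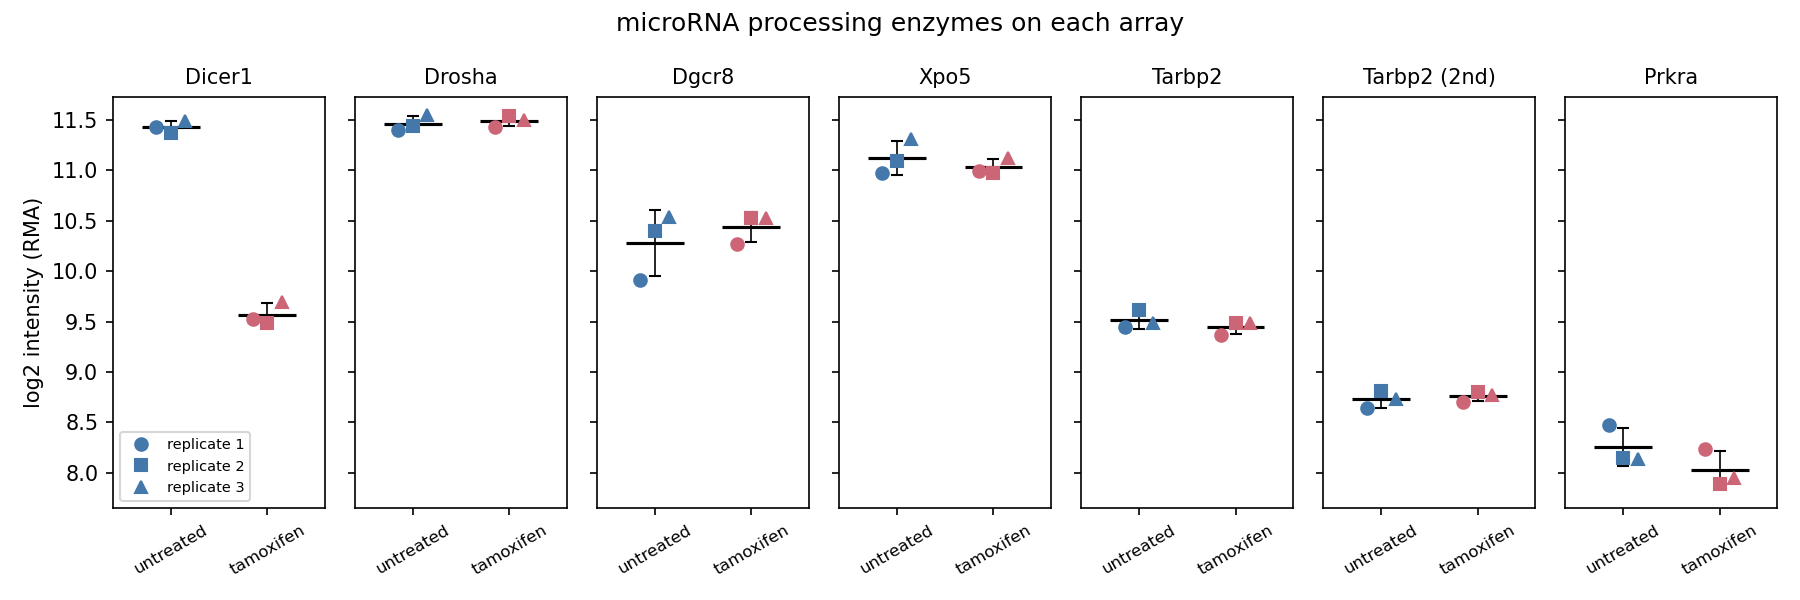
Log2 intensity (RMA) of each probe set on each of the 6 arrays, with untreated arrays in blue and tamoxifen arrays in red, symbols for the replicate number, black lines for group means and bars for 1 SD. The Dicer1 groups are apart, at 11.42 and 9.57 on average, and the groups of the other 6 probe sets overlap. Levels are not comparable between panels, since probe sets differ in how strongly they bind.

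Dicer1 encodes the ribonuclease that cuts the hairpin loop. Its log2 intensity was 11.43, 11.36 and 11.48 on untreated replicates 1, 2 and 3, and 9.53, 9.48 and 9.69 on tamoxifen replicates 1, 2 and 3. All 3 tamoxifen arrays lay far below all 3 untreated arrays, and the gap between the groups was many times the spread within either. The log2 change was -1.85 ± 0.07 (SE), which leaves 27.7% of the untreated signal (95% interval 24.6% to 31.1%, limma adjusted p = 3.61e-05). An exact permutation test on the 6 arrays (two-sided) returned its smallest possible value, p = 0.1. Same-numbered arrays differed by -1.90, -1.88 and -1.79, so the fall was of nearly the same size in each replicate number. On the first principal component of all genes, which held 52.7% of the variance, tamoxifen replicate 1 lay nearest to the untreated arrays, at 6.87 against 17.9 and 15.8 for replicates 2 and 3. Dicer1 itself was not highest on that array: tamoxifen replicate 3 had the highest level of the 3. In RNA from a whole culture, fewer cells with intact Dicer1 and less Dicer1 RNA in each cell cannot be told apart. The probe set may also read exons outside the deletion.

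The Microprocessor genes were not called. Drosha, the nuclear ribonuclease, had log2 intensities of 11.40, 11.44 and 11.54 on the untreated arrays and 11.43, 11.53 and 11.50 on the tamoxifen arrays. The values of the 2 groups interleave. The change was 0.03 ± 0.07 (SE; limma adjusted p = 0.846), and its 95% interval runs from 91.8% to 113% of the untreated level. Drosha was the most tightly bounded of the 5 genes not called without the block, and 82.2% of all genes had a smaller p. Differences within a replicate number were 0.03, 0.09 and -0.04.

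Dgcr8, the RNA-binding partner of Drosha, had the widest spread of the 6 genes among the untreated arrays. Its log2 intensity was 9.91, 10.39 and 10.54 on the untreated arrays and 10.27, 10.53 and 10.52 on the tamoxifen arrays. Replicate 1 was the lowest array in both groups, and the untreated SD of 0.33 exceeded the tamoxifen SD of 0.15. The change was 0.16 ± 0.15 (SE; limma adjusted p = 0.566), with an interval from 88.1% to 142% of the untreated level. Without untreated replicate 1 it was -0.03, so the sign of this value rests on that array. Its differences within a replicate number were 0.36, 0.13 and -0.02, which do not share a sign.

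Xpo5, the export receptor of precursor hairpins, had log2 intensities of 10.97, 11.09 and 11.30 on the untreated arrays and 11.00, 10.97 and 11.12 on the tamoxifen arrays. The groups overlap, with untreated replicate 3 above all other arrays. The change was -0.09 ± 0.09 (SE; limma adjusted p = 0.585), with an interval from 81.1% to 108% of the untreated level. Without untreated replicate 3 it was -0.0011.

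The partners of Dicer were not called either without the block. Tarbp2, which helps Dicer to place its cut and to hand the product to Argonaute, had 2 probe sets. The brighter (10427255) read 9.45, 9.61 and 9.49 on the untreated arrays and 9.37, 9.49 and 9.48 on the tamoxifen arrays. The other (10544497) read 8.65, 8.82 and 8.73 on the untreated arrays and 8.70, 8.80 and 8.77 on the tamoxifen arrays. Both sets of groups overlap. The changes had opposite signs, at -0.07 ± 0.07 for the brighter and 0.03 ± 0.07 for the other (SE; limma adjusted p = 0.604 and 0.84). Neither differs from 0 beyond its error, and their intervals run from 85.5% to 107% and from 91.7% to 113% of the untreated level.

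Prkra, known both as a Dicer partner and as an activator of the double-stranded RNA-dependent kinase PKR, had the smallest p of the 5. Its log2 intensity was 8.47, 8.15 and 8.14 on the untreated arrays and 8.24, 7.89 and 7.95 on the tamoxifen arrays. Replicate 1 was the highest array in both groups, and tamoxifen replicate 1 lay above untreated replicates 2 and 3, so the groups overlap. The change was -0.23 ± 0.12 (SE; limma adjusted p = 0.276), with an interval from 71.0% to 103% of the untreated level. Within each replicate number the tamoxifen array was the lower one, with differences of -0.23, -0.26 and -0.19. With the replicate number as a block in the limma fit, the same change of -0.23 had an SE of 0.06 and an adjusted p of 0.0282. Prkra was called in 1 of 16 alternative settings, the block, and its adjusted p ran from 0.0282 to 0.588 over them. Without untreated replicate 1 its change was -0.12 and without tamoxifen replicate 1 it was -0.33.

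**Figure D2:**
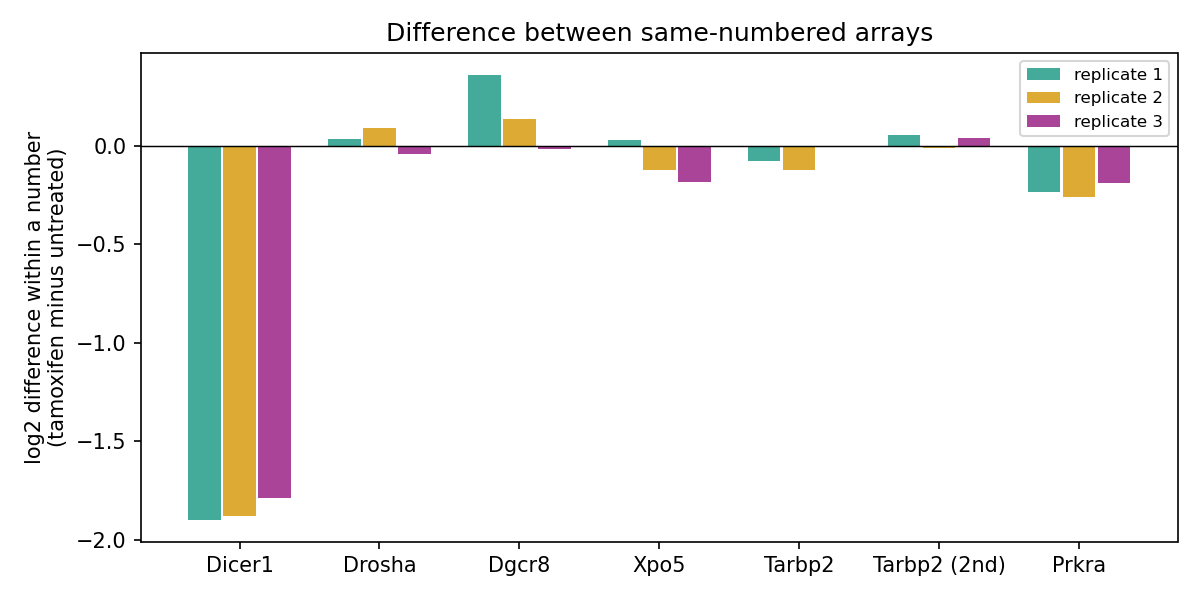
Log2 difference between the tamoxifen and the untreated array of the same replicate number, for each probe set, with 1 bar per number. Dicer1 was lower by 1.79 to 1.90 in every number and Prkra by 0.19 to 0.26. The brighter Tarbp2 probe set was also lower in every number, with bars from -0.12 to -0.0029. The bars of Drosha, Dgcr8, Xpo5 and the other Tarbp2 probe set lie on both sides of 0.

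**Figure D3:**
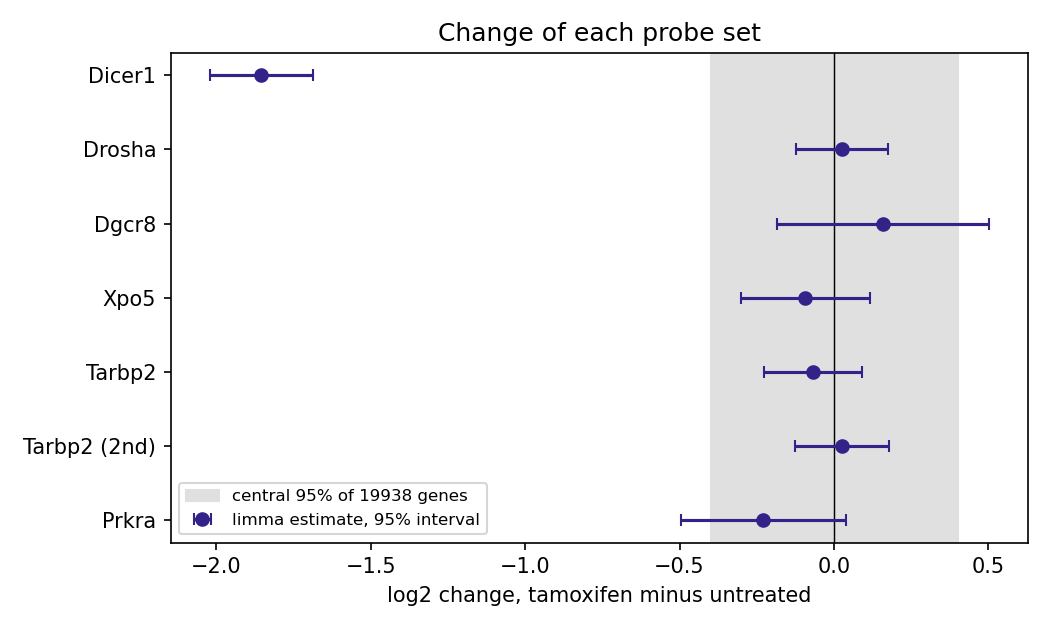
Log2 change (tamoxifen minus untreated) of each probe set with its 95% limma interval, over a grey band that holds the central 95% of the changes of 19938 genes (-0.40 to 0.40). Dicer1 lies far to the left of the band, and the intervals of the other 6 probe sets all include 0.

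The intervals of the unblocked fit limit what the 5 genes not called in it can have done. Their lowest bound was that of Prkra, at 71.0% of the untreated level, and their highest that of Dgcr8, at 142%. A loss of the size seen for Dicer1, whose own interval ends at 31.1%, lies outside all of them. Smaller changes inside these bounds might have been missed with 3 arrays a group. Arrays were also simulated with the observed spread over 19938 genes, of which 200 were changed. There limma called 56% of 100 genes given a log2 change of 0.5 and 92% of 100 given a log2 change of 1. The adjusted p depends on the share of changed genes, and 1552 genes were called in the data. These rates may therefore not hold for these arrays.

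Around these enzymes, 54 further genes of the pathway were listed in 5 groups by role, and 49 of them were measured. Of the 49, 1 rose, 2 fell and 46 were not called, so 6.12% were called. Together with the 6 enzymes, 4 of 55 genes were called (7.27%), close to the 7.78% of all genes. The 4 include Dicer1, the target of the deletion. With the replicate block, 3 of the 55 genes rose and 7 fell, Dicer1 among them, or 18.2%, again close to the background of 17.4% in that fit. The median change of the 49 genes was -0.01 on the log2 scale.

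Helpers of the Microprocessor gave no call. Of 13 measured, 0 rose and 0 fell by limma, with 0 called in the blocked fit and 1 at an unadjusted p under 0.05 (24.5% of all genes), and their changes ran from -0.14 to 0.18. The RNA helicases Ddx5 and Ddx17, which join Drosha on some primary transcripts, had changes of 0.07 ± 0.06 and 0.10 ± 0.07. The smallest p-values were those of Erh, a small protein that binds Dgcr8, at -0.14 ± 0.06 (limma adjusted p = 0.204), and Srrt, which links capped transcripts to the Microprocessor, at 0.18 ± 0.09 (adjusted p = 0.247).

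Export factors gave 1 call among 7 genes. Rangap1, which makes the GTPase Ran release its cargo in the cytoplasm, read 11.50, 11.52 and 11.44 on the untreated arrays and 11.18, 10.94 and 11.07 on the tamoxifen arrays. It was lower on every tamoxifen array, and fell 1.34-fold (log2 -0.42 ± 0.07, SE; limma adjusted p = 0.0141). The call was lost when untreated replicate 2 was left out (adjusted p = 0.0596), and likewise for tamoxifen replicates 2 (0.0601) and 3 (0.0534). Ran, which XPO5 needs to hold a hairpin, had a change of -0.11 ± 0.06 (adjusted p = 0.274). Xpo1, which exports some capped precursors, had -0.08 ± 0.07 (adjusted p = 0.559). Rcc1, which charges Ran with GTP, was named after its values were seen. It had -0.20 ± 0.07 (adjusted p = 0.116), or 0.0465 with the replicate block.

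Among 11 genes that modify or destroy precursors, 0 rose and 1 fell. Zc3h12a, a ribonuclease that cuts the loops of some precursors, read 8.03, 8.02 and 8.15 on the untreated arrays and 7.76, 7.76 and 7.77 on the tamoxifen arrays. The tamoxifen arrays were nearly identical and all lower, and the fall was 1.23-fold (log2 -0.30 ± 0.06, SE; limma adjusted p = 0.0232). The call was lost without untreated replicates 2 (0.0622) or 3 (0.0627) and without tamoxifen replicates 2 (0.0911) or 3 (0.0806). Lin28a, which blocks the maturation of let-7 precursors, was chosen after its values were seen. It read 11.32, 11.46 and 11.30 on the untreated arrays and 10.94, 11.17 and 11.08 on the tamoxifen arrays. All 3 tamoxifen arrays were lower, with a change of -0.30 ± 0.08 that did not pass (adjusted p = 0.0552). It passed in 4 of 16 alternative settings, with an adjusted p of 0.0133 with the replicate block, 0.0445 without the dimmest 40% of genes, 0.0372 with a trended robust variance prior and 0.0305 with array weights. The uridylating enzymes that act with LIN28, Tut4 and Tut7, had changes of -0.01 ± 0.10 and -0.14 ± 0.08 (adjusted p = 0.963 and 0.3).

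Other double-stranded RNA-binding proteins, the wider class to which TARBP2 and PRKRA belong, gave no call among 9 genes by limma, although the unadjusted p was under 0.05 for 2 genes with a higher and 2 with a lower level, against 24.5% of all genes. Adar, which edits adenosines in double-stranded RNA, read 9.59, 9.66 and 9.90 on the untreated arrays and 9.42, 9.33 and 9.55 on the tamoxifen arrays, and its groups do not overlap. Its change was -0.28 ± 0.09 (SE; adjusted p = 0.106, or 0.0185 with the block). Strbp, a germ-cell RNA-binding protein, had -0.19 ± 0.07 (adjusted p = 0.142), and its second probe set had 0.04 ± 0.09 (adjusted p = 0.806). The helicase Dhx9, picked after its values were seen, had 0.30 ± 0.12 (adjusted p = 0.174, or 0.00966 with the block). Eif2ak2, the kinase PKR that PRKRA activates, had -0.09 ± 0.11 (adjusted p = 0.685).

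Of 9 genes for loading Argonaute, 1 rose and 0 fell. Ago1, an Argonaute that receives the product of Dicer, read 10.44, 10.50 and 10.63 on the untreated arrays and 11.32, 11.58 and 11.46 on the tamoxifen arrays. The groups are well apart, with a log2 change of 0.93 ± 0.08 (SE; limma adjusted p = 0.00129), the largest change of the 49 genes. Ago2, the Argonaute that cuts Mir451a and another gene picked after its values were seen, had 0.28 ± 0.07 (adjusted p = 0.053). It passed in 8 of 16 alternative settings, the block among them (0.0211), and its adjusted p ran from 0.0211 to 0.164 over the 16. Its second probe set gave 0.41 ± 0.11 (adjusted p = 0.0547). Ago3 and Ago4 were not called, at 0.17 ± 0.08 and -0.01 ± 0.09 (SE, limma adjusted p = 0.254 and 0.969). On the brightest probe set of each, the changes of the chaperone genes ran from -0.15 for Stip1 to 0.07 for Hspa8. Other Hspa8 probe sets gave 0.08 ± 0.06 and 0.01 ± 0.06 (SE).

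**Figure D4:**
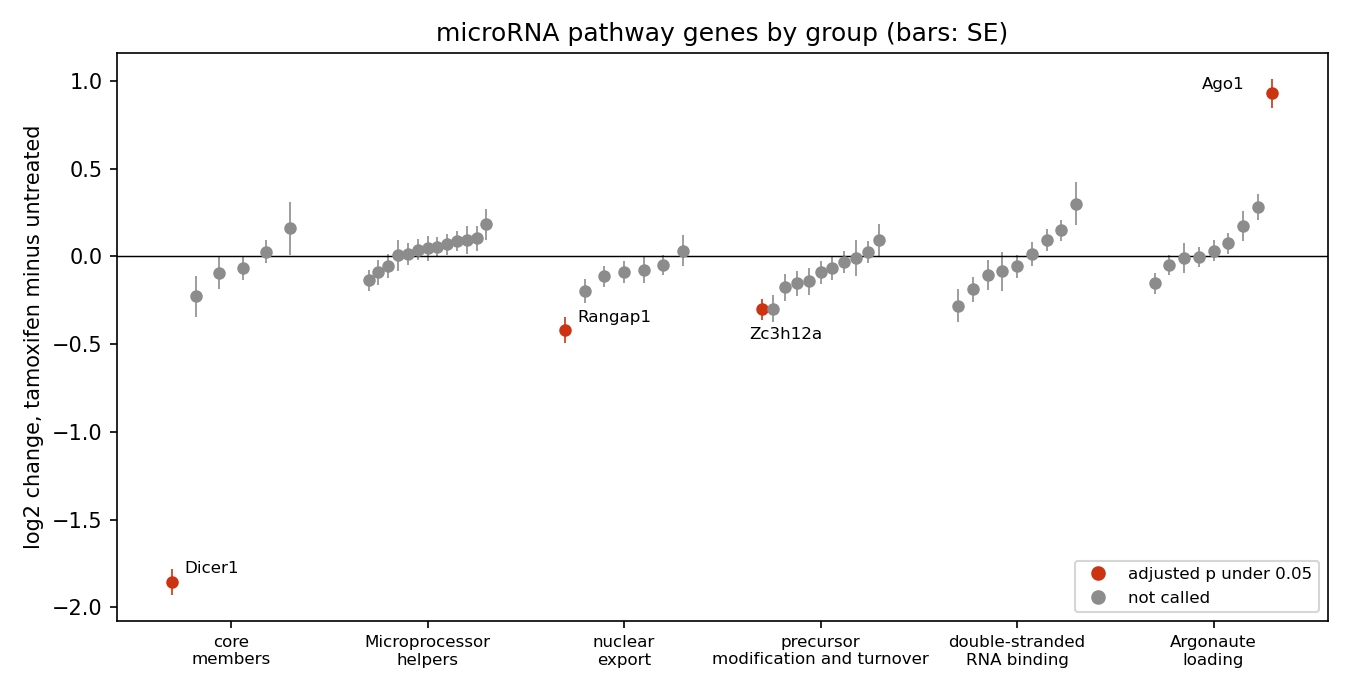
Log2 change (tamoxifen minus untreated) of 55 measured microRNA pathway genes in 6 groups, each point a gene and each bar 1 SE, with called genes in red. Dicer1 at -1.85 and Ago1 at 0.93 stand apart, and Rangap1 (-0.42) and Zc3h12a (-0.30) are the other called genes.

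Genes whose profile over the 6 arrays was most like that of Dicer1 were searched among 2390 genes with an SD of at least 0.2. Left out by name were symbols ending in Rik or starting with Mir, Snor, LOC, or Gm, AA, AI, AW or BC plus digits. The highest Pearson correlations were those of Epha1 (0.995), Cry1 (0.993), Abcb6 (0.991), Crem (0.99) and Phox2a (0.989). Their log2 changes ran from -0.71 for Cry1, a repressor of the circadian clock, to -0.38 for Crem. Each was shallower than that of Dicer1, but Dicer1 had the lowest change of all 19938 genes, so this held for every other gene. The lowest correlations were those of Glis3 (-0.998), Dpysl3 (-0.997), Fat2 (-0.996), Skida1 (-0.996) and Syap1 (-0.995), with changes from 0.46 to 0.99. These 10 genes were picked for their likeness over n = 6 arrays, which share the split by treatment, so their correlations are a description. For Drosha the highest values were lower, from 0.88 for Flvcr1 to 0.894 for Radx, with Nexmif, Gpc4 and Smarcad1 between them.

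Cell type markers were read on the same arrays, as levels only, since RMA carries no detection call. The mean log2 intensity of 9 stem cell markers, Pou5f1, Sox2 and Nanog among them, was 12.8 to 12.9 on the untreated arrays and 12.7 to 12.8 on the tamoxifen arrays. The mean of 10 fibroblast markers, which feeder cells would bring, was 6.64 to 6.81 and 6.75 to 6.81. For 8 primitive endoderm markers it was 7.04 to 7.24 and 7.07 to 7.15. No marker of the 3 lists was called by limma, against 7.78% of all genes. With the block, which called 17.4% of all genes, 2 stem cell markers fell (Utf1, log2 -0.26, and Tdgf1, -0.24) and 0 rose. In that fit 1 fibroblast marker fell (Thy1, -0.32), and 1 endoderm marker rose (Pdgfra, 0.36) while 1 fell (Sox7, -0.28). The part of these markers in the results above was not tested. The unadjusted p was under 0.05 for 4 stem cell markers (1 higher, 3 lower), 1 fibroblast marker (lower) and 2 endoderm markers (1 higher, 1 lower), against 24.5% of all genes.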

How the data were processed

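Total RNA of 6 samples was measured on Affymetrix arrays, 3 per group. The authors deposited log2 intensities. Per the submitters' processing notes, they used RMA and Affymetrix Expression Console 1.2. The values, from 3.18 to 14.6, show the log2 scale. RMA quantile-normalises arrays, carries no detection call and compresses changes of dim probe sets. The genome build is not given in the sources used here. Precision is limited by the number of arrays.

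Of 35556 probe sets, 21789 carried a single symbol (1 gene) in the platform's annotation. The brightest per gene over the 6 arrays was kept (19938 genes). The comparison used R 4.3.3 and limma 3.58.1 (lmFit, eBayes, two-sided, Benjamini-Hochberg over all genes), and second probe sets in a fit to all 21789. The code was tested on simulated arrays. Named genes are the 6 enzymes, called genes of the pathway lists, and the 2 smallest p-values of a list without a call. Others are said to be outside this rule, except Ddx5, Ddx17, Ran, Xpo1, Tut4, Tut7, Eif2ak2, Ago3, Ago4, Stip1 and Hspa8. Those were added after their values were seen. Members and lists were chosen with earlier results of these data known. Listed genes beyond the 55 measured ones are not analysed here.

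Deviations from group means correlated at 0.356, 0.345 and 0.389 between same-numbered arrays. The block pairs arrays by the numbers that the labels share, but the labels do not say that same-numbered arrays belong together. Among the fits, pairing entered only the block. The main fit left it out, so its SEs, intervals and calls take no account of pairing. Alternatives were the block, probe set means, omission of the dimmest 40% of genes, 3 normalisations, a trended robust prior, array weights, 2 wider feature sets, 2 stricter thresholds and the omission of each array in turn.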

Additional observations from a re-analysis of the deposited data

How the results depend on the processing

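Dicer1 was called lower in all 16 alternatives (log2 -1.92 to -1.81, adjusted p at most 0.00299; -1.92 to -1.81 without 1 array). Without 1 array, Drosha ran from -0.0051 to 0.068, Dgcr8 from -0.025 to 0.29, Xpo5 from -0.17 to -0.0011, Tarbp2 from -0.10 to -0.02 and Prkra from -0.33 to -0.12, with 0 calls among them; Drosha (-0.0051) and Dgcr8 (-0.025) changed sign without untreated replicate 1, and Tarbp2 read 0.028 on its other probe set (10544497). Prkra (-0.23) passed with the replicate block (adjusted p = 0.0282); the block changed no other call among the 6 enzymes. The 1552 genes called became 3472 with the replicate block, 2511 with array weights, 336 over all probe sets of the table, 276 at an adjusted p under 0.01, 442 with a log2 change of at least 0.5, and 355 to 1580 without 1 array (516 and 908 without untreated replicates 2 and 3, 355 and 539 without tamoxifen replicates 2 and 3). The 4 pathway genes called became 10 with the block, 2 over all probe sets of the table, 5 with probe set means, renewed quantile normalisation or cyclic loess, 6 without the dimmest 40%, with the trended robust prior or with array weights, and 2 to 4 without 1 array (2 without untreated replicate 2 or tamoxifen replicates 2 or 3). Over all probe sets of the table, Rangap1 (adjusted p = 0.0601) and Zc3h12a (0.0713) lost their calls. Lin28a gained a call in 4 of 16 settings and Ago2 in 8, and Rcc1, Adar and Dhx9 with the block alone. Using every probe set raised the number of features tested from 19938 to 35556, while the block kept it at 19938. What caused the differences between settings was not tested, including those with every probe set and with the block.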
